A study of Mus musculus with 8 samples.

Results

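The redox defence genes other than the glutathione peroxidases were examined in islets of mice on high fat diet (HF) and on normal chow (NC). The set was a list of 50 genes, and its members were all probe sets annotated to exactly 1 of these genes. On the array 46 of the 50 genes had such a probe set, 98 probe sets in all of 45101. Of these, 83 probe sets of 42 genes were among the 25617 retained for their intensity, and each of the 83 was tested.

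Islets of male C57BL/6J mice on HF (45 kcal% fat, replicates 21, 22, 23 and 24) were compared with islets of male C57BL/6J mice on NC (4 kcal% fat, replicates 1, 2, 4 and 5), to find out how the diet alters islet gene expression. Diets began at weaning at 4 weeks of age and lasted 14 weeks by the methods or 12 weeks by the labels. Both groups carry the deletion of Nnt that occurs naturally in this strain, and the product of Nnt makes NADPH in mitochondria. Each of the 8 samples combined islets of 2 mice and was measured on 1 array, so that n counts pools and p-values measure the spread between pools.

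Superoxide dismutases turn superoxide into hydrogen peroxide, which catalase and the peroxiredoxins then remove. Thioredoxin, glutaredoxin and glutathione supply the electrons for the peroxiredoxins and draw them from NADPH. Glutathione transferases couple glutathione to reactive compounds so that these can be cleared. Many of these genes are turned on by the factor NRF2, which Keap1 holds back until oxidants release it, and beta cells are known for a low content of catalase.

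All values are GCRMA intensities, that is, array signals adjusted for background, on a linear scale. They were compared on the log2 scale with limma and Benjamini-Hochberg adjustment over all 25617 probe sets, and a probe set was called where its adjusted p lay under 0.05 and its fold reached 1.5. Where a gene has several retained probe sets they are numbered by mean intensity, and no level is compared between probe sets. Samples had median intensities of 13.03 to 13.81, and their log2 values correlated at 0.992 to 0.997 within HF, at 0.992 to 0.995 within NC and at 0.986 to 0.990 between diets. The islet hormone genes were bright in every sample, with Ins2 at 72718 ± 1199 in HF islets and 67580.3 ± 432 in NC islets, and the summed intensity of 8 acinar cell markers was 333872 to 398848 in HF samples and 314092 to 415201 in NC samples, with none of the 8 called.

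By the adjusted p alone 9 redox defence genes changed, of which 5 were glutathione transferases, each lower in HF islets. With the fold limit 4 changed, namely the transferases Mgst1 and Gstm1 and catalase (Cat), which were lower, and the sestrin Sesn3, which was higher. Of the 83 probe sets 1 was called higher (1.20%, against 0.644% of all retained probe sets) and 4 were called lower (4.82%, against 3.06%), and 78 were not called. By the adjusted p alone 2 were higher (2.41%, against 2.03%) and 9 were lower (10.8%, against 4.13%), which covers 7 genes. The 4 HF values lay above all 4 NC values for 5 probe sets (6.02%, against 6.81%) and below them for 15 (18.1%, against 7.84%). The median log2 fold change was 0.02 over the members and 0.02 over all retained probe sets. For 66 of the 83 members (79.5%) the 95% interval of the fold lay within 1.5-fold in either direction, as it did for 77.3% of all retained probe sets.

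**Figure D1:**
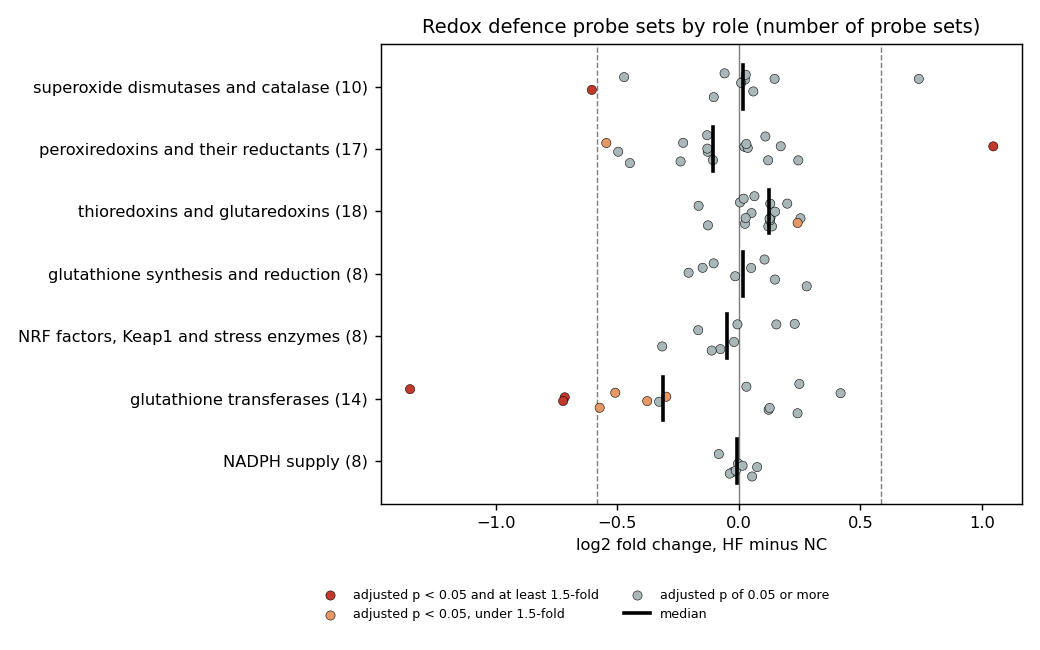
Each point is 1 retained probe set of a redox defence gene, placed by its log2 fold change (HF minus NC, limma) within its role, and black bars are medians. Dashed lines mark a fold of 1.5, and colours give the call. The glutathione transferases have a median of -0.31 and hold 3 of the 4 probe sets called lower.

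The 13 listed glutathione transferases had 14 retained probe sets of 11 genes. By the adjusted p alone 7 probe sets of 5 genes were lower (50%, against 4.13% of all retained probe sets) and none was higher. Of the 14, 3 also passed the fold limit (21.4%, against 3.06%), and these were of Mgst1 and Gstm1. The median log2 fold change of the 14 was -0.31. Without the transferases, the other 69 members held 2 higher and 2 lower probe sets by the adjusted p, with a median of 0.02. Together these were 5.80% of the 69, against 6.16% of all retained probe sets in either direction.

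Mgst1, the microsomal glutathione transferase of the endoplasmic reticulum and the outer mitochondrial membrane, had the lowest fold of the 83 probe sets. Its intensities were 293, 314, 191 and 203 in HF islets, against 523, 604, 667 and 725 in NC islets. The highest HF value was well below the lowest NC value, and HF 23 and HF 24 were the lowest of all. The mean was 250.3 ± 62.2 in HF islets and 629.5 ± 86.6 in NC islets (SD, n = 4 each). By the means of log2 values, from which all folds are taken, HF islets held 0.391 of the NC level, 95% interval 0.292 to 0.525 (log2 fold change -1.35, SE 0.18, adjusted p = 0.00568).

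Gstm1, a cytosolic transferase of the mu class that detoxifies electrophiles, fell on all 3 of its retained probe sets. Probe set 1 read 1279, 1019, 1066 and 1098 in HF islets, against 1847, 2034, 1763 and 1683 in NC islets (log2 fold change -0.72, SE 0.09, adjusted p = 0.00417). Probe set 2 read 1126, 922, 1050.5 and 1096 in HF islets, against 1827, 1812, 1657 and 1622 in NC islets (log2 fold change -0.72, SE 0.08, adjusted p = 0.00254). Neither overlapped between the diets, and HF islets held 0.608 of the NC level, 95% interval 0.527 to 0.702 on the first and 0.606 of the NC level, 95% interval 0.534 to 0.687 on the second. Probe set 3, which is dim, was at 27.9 ± 2.26 in HF islets and 39.7 ± 2.34 in NC islets (SD, n = 4 each; log2 fold change -0.51, SE 0.08, adjusted p = 0.00786), under the fold limit. Probe sets 1 and 3 carry the suffix _x_at, which the array's maker gives to designs that may also bind related transcripts, and the mu class genes are alike in sequence, whereas probe set 2 carries no such mark. The calls of Mgst1 and of Gstm1 on probe sets 1 and 2 were kept under every alternative that held the probe set, each left-out sample included. Gstm1 probe set 2 was not part of the fit with 1 probe set per gene.

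Gstm2, another enzyme of the mu class, had intensities of 689.7, 566, 478 and 649 in HF islets, against 994, 830.5, 859 and 837 in NC islets. All HF values lay below all NC values (log2 fold change -0.57, SE 0.12, adjusted p = 0.0320), and the fold missed the limit. Its adjusted p was 0.0650 with no filter and 0.0848 with each probe set's own variance in place of limma's moderated variance, and leaving out HF 22, HF 24 or any NC sample took it over the threshold, to at most 0.0834.

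Gstp1, the pi class transferase, had intensities of 6733, 7132, 7515 and 6844 in HF islets, against 8939.8, 9863, 8348 and 9563 in NC islets. The diets did not overlap and the difference was small, at 0.770 of the NC level, 95% interval 0.689 to 0.860 (log2 fold change -0.38, SE 0.07, adjusted p = 0.0187). Leaving out HF 21, HF 24, NC 2 or NC 5 raised its adjusted p over the threshold, to at most 0.0592.

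Gstt1, a theta class transferase, read 718, 729, 696 and 788 in HF islets, against 941, 920.4, 912 and 832 in NC islets. Its highest HF value was below its lowest NC value, with HF islets at 0.813 of the NC level, 95% interval 0.735 to 0.898 (log2 fold change -0.30, SE 0.06, adjusted p = 0.0312). Without HF 21, HF 22, HF 23, NC 1, NC 2 or NC 4 the adjusted p was over 0.05, and 0.0863 at most.

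The other 6 transferases did not pass the test. Gsto1, the omega class enzyme, gave log2 fold changes of 0.24 on probe set 1 and 0.42 on probe set 2 (adjusted p = 0.379 and 0.232). Mgst3, a microsomal enzyme, gave 0.25 (adjusted p = 0.413), Gstz1, which also degrades tyrosine, gave 0.13 (adjusted p = 0.412) and Gstt2 gave 0.12 (adjusted p = 0.621). Gstm5, of the same class as Gstm1 and Gstm2, was at 1427 ± 77.3 in HF islets and 1398 ± 99.9 in NC islets (SD, n = 4 each), with a 95% interval of the fold of 0.914 to 1.14. Gsta3, an alpha class enzyme, was dim, with HF values of 10.1 to 11.8 and NC values of 10.8 to 25.6 (log2 fold change -0.33, adjusted p = 0.548).

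**Figure D2:**
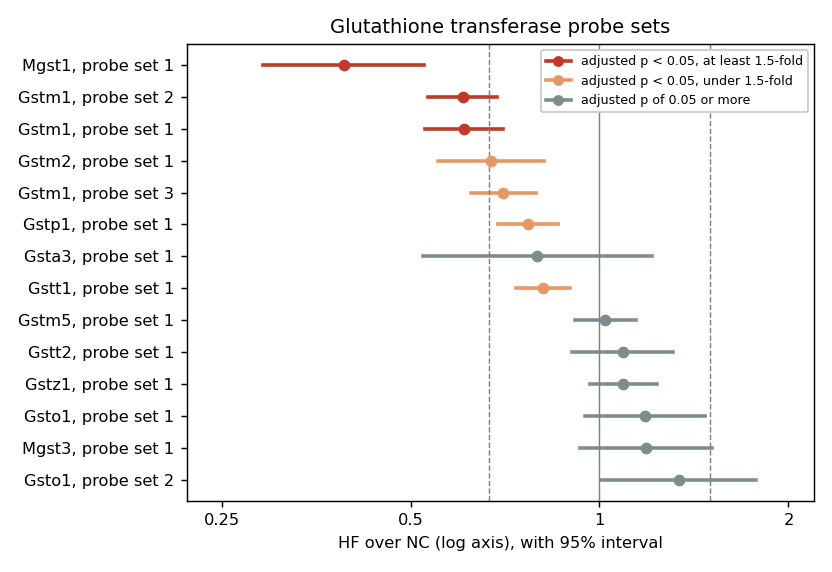
Points are folds (HF over NC, log axis) of the 14 retained glutathione transferase probe sets, and bars are 95% intervals from limma. Dashed lines mark a fold of 1.5 in either direction. The intervals of Mgst1, Gstm1, Gstm2, Gstp1 and Gstt1 lie wholly below 1 and those of the other genes reach or cross it, except that of Gsto1 probe set 2, which begins just above it.

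Markers of connective, vascular and immune cells also differed between the diets. All 11 fibroblast and stellate cell markers were called lower, with a summed intensity of 3115 to 5377 in HF samples and 14070 to 20027 in NC samples. Col1a1, a collagen gene of these cells, was at 26.2 ± 20.8 in HF islets and 302 ± 78.6 in NC islets (SD, n = 4 each). Of the macrophage and myeloid markers 5 of 9 were called lower (summed intensity 6224 to 7577 in HF and 9467 to 11847 in NC samples), as were 3 of 5 smooth muscle and pericyte markers (6840 to 7953 in HF and 10092 to 11092 in NC samples) and 2 of 9 endothelial markers (13013 to 14600 in HF and 17015 to 19722 in NC samples). Of the Schwann cell markers 3 of 5 were called lower (427 to 561 in HF and 1206 to 1377 in NC samples), and of the lymphoid markers 3 of 5 (251 to 824 in HF and 1416 to 2602 in NC samples). None of 10 beta cell markers was called, and Pcsk1 was higher by the adjusted p alone (log2 fold change 0.34, adjusted p = 0.0312). Their sum was 273807 to 288284 in HF and 258257 to 264265 in NC samples, without overlap. Ins2, Iapp, G6pc2 and Pcsk1 had all HF values above all NC values, and the other beta cell markers overlapped. None of 4 alpha, 3 delta and PP and 5 duct cell markers was called either. The delta and PP sum was 77615 to 89157 in HF and 92845 to 94366 in NC samples, without overlap. The alpha sum (86870 to 95066 in HF, 89102 to 92577 in NC) and the duct sum (2854 to 3417 in HF, 2992 to 3469 in NC) overlapped. Of the single markers of these types Irx1, Irx2 and Slc7a2 (alpha), Ppy (PP) and Krt19 (duct) had all HF values below all NC values. The other alpha, delta, PP and duct cell markers overlapped. In whole islets, fewer cells of a type and less RNA per cell cannot be told apart. The part of these markers in the changes of the transferases and of the genes below was not tested.

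Catalase fell in HF islets, while the cytosolic (Sod1) and mitochondrial (Sod2) dismutases did not pass the test. Cat probe set 2 read 155, 192, 197 and 172 in HF islets, against 272, 286, 254 and 274 in NC islets. The diets did not overlap, and HF islets held 0.657 of the NC level, 95% interval 0.574 to 0.752 (log2 fold change -0.61, SE 0.08, adjusted p = 0.00624). This call ended at the fold limit without HF 21 (log2 fold change -0.54), without NC 2 (-0.58) and when the arrays were quantile normalized again (-0.58), with the adjusted p under 0.05 each time. Cat probe set 1 read 195, 269, 243 and 258 in HF islets, against 325, 297, 369 and 341 in NC islets. It too separated the diets, and its adjusted p lay just over the threshold (log2 fold change -0.47, SE 0.11, adjusted p = 0.0504).

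Sod1 probe set 1 read 8294, 8327, 7700.4 and 8226 in HF islets, against 8481, 8579, 8979.9 and 8925 in NC islets, all HF values being the lower ones, by a small margin (log2 fold change -0.10, SE 0.05, adjusted p = 0.298). Probe set 4 of the same gene, which was chosen after its values were seen, went the other way, with 70.7, 72.6, 106 and 72.4 in HF islets, against 47.5, 49.8, 34.4 and 62.0 in NC islets. The diets did not overlap there either, and the adjusted p missed the threshold (log2 fold change 0.74, SE 0.20, adjusted p = 0.0702). For Sod2 probe set 1, at 2185 ± 165 in HF islets and 2147 ± 153 in NC islets (SD, n = 4 each), the 95% interval of the fold was 0.899 to 1.15 (log2 fold change 0.02, adjusted p = 0.909). The extracellular dismutase Sod3 was under the intensity limit of 8.82 in all samples, with values of 3.69 to 6.16 on its probe sets.

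Sestrins are stress proteins that hold back growth signals and support the reduction of peroxiredoxins, and Sesn1 and Sesn3 were the members of the peroxiredoxin group that passed the adjusted p. Sesn1 probe set 1 read 3109, 2619.8, 3951 and 3177 in HF islets, against 4311, 4410.0, 4732 and 5166 in NC islets. All HF values were below all NC values (log2 fold change -0.55, SE 0.12, adjusted p = 0.0409). Sesn1 probe sets 2 and 3 separated the diets the same way and missed the threshold, with log2 fold changes of -0.50 and -0.45 (adjusted p = 0.0614 and 0.0529), and the dim probe set 4 was at 14.5 ± 0.919 in HF islets and 14.2 ± 1.17 in NC islets. The adjusted p of probe set 1 was 0.0817 with no filter and 0.0993 with its own variance. Leaving out any sample but HF 23 took it over the threshold, to at most 0.105.

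Sesn3 gave the 1 higher call among the members, and its probe sets disagreed. Probe set 2 read 2597, 1305, 2176 and 2001 in HF islets, against 888, 922, 1182 and 836 in NC islets. HF samples were all higher and spread widely, with HF 22 close to NC 4, and the fold was 2.07 (95% interval 1.48 to 2.88; log2 fold change 1.05, SE 0.21, adjusted p = 0.0258). Probe set 1 read 2635, 2159.7, 2191 and 2634 in HF islets, against 2838, 2455, 2734 and 2478 in NC islets, with overlapping diets (log2 fold change -0.13, SE 0.09, adjusted p = 0.482). The call of probe set 2 ended with no filter (adjusted p = 0.0611), with its own variance in place of limma's moderated variance (adjusted p = 0.0813), and without HF 21, HF 23, HF 24, NC 1, NC 2 or NC 5 (at most 0.0784). Which transcripts the probe sets bind was not examined.

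The peroxiredoxins themselves did not pass the test. Prdx2, a cytosolic peroxidase, was at 4294 ± 168 in HF islets and 4232 ± 269.6 in NC islets on probe set 1 (SD, n = 4 each), with a 95% interval of 0.919 to 1.12. Prdx3, the mitochondrial form, gave a log2 fold change of 0.17 (adjusted p = 0.164). Prdx4, the form of the endoplasmic reticulum, gave -0.23, -0.24 and -0.13 on its 3 probe sets (adjusted p = 0.308, 0.112 and 0.371), and on probe sets 2 and 3 all HF values were below all NC values. Srxn1, the sulfiredoxin that repairs overoxidized peroxiredoxins, gave 0.11 to 0.24 on 3 probe sets (adjusted p = 0.168 to 0.428), and Sesn2 gave 0.03 and -0.13. Prdx1 was not analysed here since its probe sets are annotated together with Gm21399, and Prdx5 and Prdx6 were not analysed here either.

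**Figure D3:**
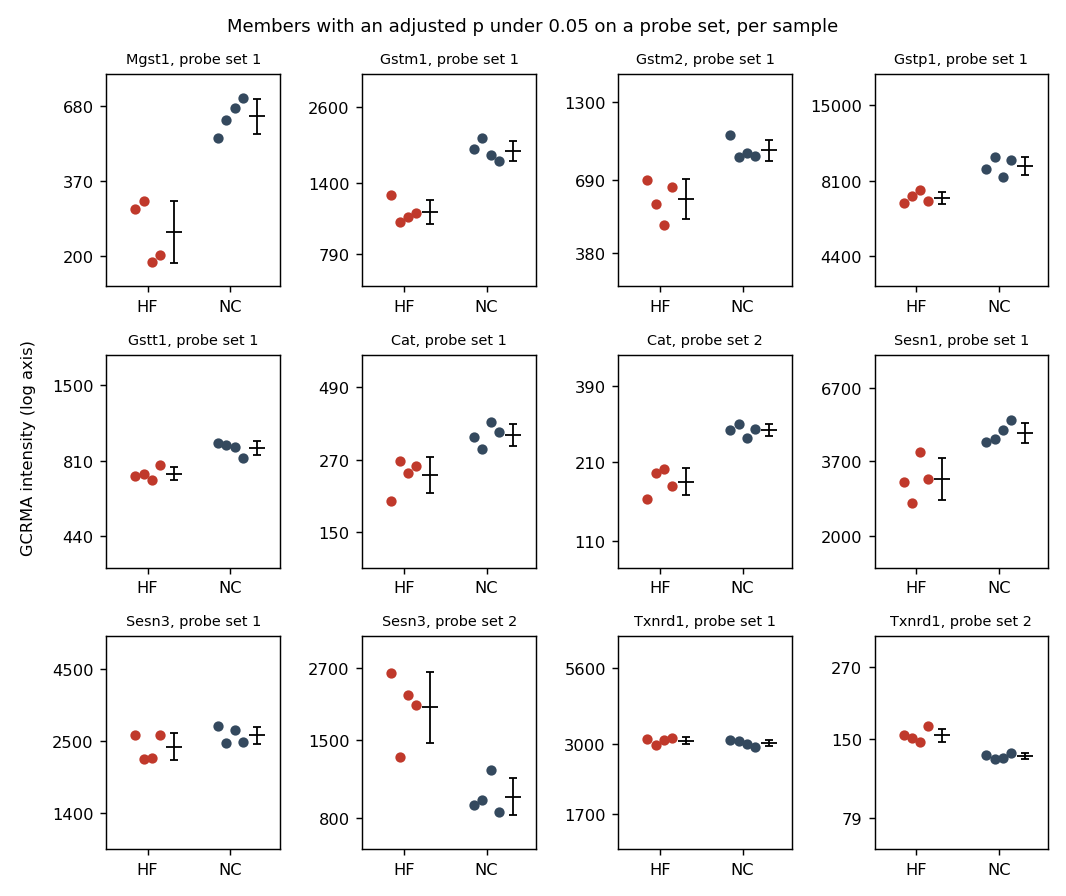
Points are GCRMA intensities (log axis) of single samples, HF left of NC, for members with an adjusted p under 0.05 on a probe set. Horizontal and vertical bars are mean and SD of the log2 values (n = 4). The diets do not overlap for Mgst1, Gstm1, Gstm2, Gstp1, Gstt1, Cat, Sesn1, Sesn3 probe set 2 and Txnrd1 probe set 2, and overlap for probe set 1 of Sesn3 and of Txnrd1.

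Thioredoxins and glutaredoxins reduce disulfides. Of their 18 probe sets, which come from only 8 genes, 16 had a log2 fold change above 0. Their median was 0.12, against 0.02 over all retained probe sets. Scaling the arrays on beta cell markers moved the median of the group to -0.01, with 7 of the 18 above 0. It moved the median of all retained probe sets by -0.13. The median of the group lay 0.105 above that of all retained probe sets in the main fit. This scaling moves every log2 fold change by the same amount, so it cannot alter that gap and does not test it. Only Txnrd1 passed, the cytosolic reductase that keeps thioredoxin reduced. Its probe set 2 read 154, 151, 147 and 166 in HF islets, against 132, 128, 129 and 134 in NC islets, without overlap (log2 fold change 0.24, SE 0.06, adjusted p = 0.0423). Probe set 1 of the gene read 3134, 2975, 3095 and 3166 in HF islets, against 3112, 3091, 3002 and 2929 in NC islets, with overlap and a 95% interval of the fold of 0.944 to 1.10. The adjusted p of probe set 2 was over the threshold with scaling on beta cell markers (0.233), with an intensity trend and robust prior (0.0934) and without any sample but HF 23 (at most 0.105).

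Txn1, the cytosolic thioredoxin, was at 6316 ± 412 in HF islets and 6205 ± 341 in NC islets (SD, n = 4 each), with a 95% interval of 0.915 to 1.13. Glrx2, a mitochondrial glutaredoxin, came nearest the threshold among the rest, with 608, 596, 609 and 589 in HF islets, against 516, 536, 513 and 454 in NC islets on probe set 3 (log2 fold change 0.25, SE 0.06, adjusted p = 0.0540). HF values were all the higher ones on this probe set and on probe set 1 (log2 fold change 0.06, adjusted p = 0.470) and overlapped on probe set 2. The other members, Txn2, Txnrd2, Txnrd3, Glrx and Glrx5, gave log2 fold changes of -0.17 to 0.20. Glrx3 was under the intensity limit, at 5.23 to 5.45.

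Of the enzymes of glutathione synthesis and reduction, none of the 8 probe sets passed, and for all 8 the 95% interval lay within 1.5-fold. Gclc, the catalytic subunit of the rate-limiting enzyme of glutathione synthesis, read 722, 716, 772 and 611 in HF islets, against 549, 562, 582 and 627 in NC islets on probe set 1. HF 24 lay within the NC values and the other HF samples above them (log2 fold change 0.28, SE 0.08, adjusted p = 0.0964), and probe set 2 gave -0.02. Gclm, its modifier subunit, was at 1561 ± 180.4 in HF islets and 1450.5 ± 152 in NC islets on probe set 1 (SD, n = 4 each; log2 fold change 0.11, adjusted p = 0.634). Gsr, the reductase that regenerates glutathione, gave -0.15 on probe set 1 and 0.15 on probe set 2 (adjusted p = 0.315 and 0.369), and Gss, which completes glutathione, gave 0.05 and -0.10.

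None of the 8 probe sets of the enzymes that supply NADPH passed. Their median absolute log2 fold change was 0.03, against 0.11 over all retained probe sets, and for all 8 the 95% interval lay within 1.5-fold. Idh1, the cytosolic isocitrate dehydrogenase, was at 1618 ± 113 in HF islets and 1624 ± 144 in NC islets on probe set 1 (SD, n = 4 each). Pgd, of the pentose phosphate pathway, gave log2 fold changes of -0.04 to 0.01 on 4 probe sets, and Idh2, the mitochondrial isocitrate dehydrogenase, gave 0.05 and 0.07. G6pdx was not analysed here.

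Of the NRF factors, Keap1 and the stress enzymes, none of the 8 probe sets passed either. Nfe2l2, which encodes NRF2, read 1143, 1289, 1003 and 1331 in HF islets, against 1505, 1193, 1433 and 1045 in NC islets on probe set 1, with overlap and a 95% interval of the fold of 0.742 to 1.15 (log2 fold change -0.11, adjusted p = 0.721). Keap1 was at 1023 ± 115 in HF islets and 920.0 ± 107 in NC islets on probe set 1 (SD, n = 4 each; log2 fold change 0.15, adjusted p = 0.485).

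Nqo1, a quinone reductase and a classical target of NRF2, read 21.5, 19.6, 19.2 and 22.8 in HF islets, against 25.1, 19.3, 19.7 and 19.5 in NC islets. The diets overlapped and NC 1 stood above the other NC samples (log2 fold change -0.01, adjusted p = 0.985). Hmox1, the inducible heme oxygenase, read 36.0, 37.1, 43.5 and 33.6 in HF islets, against 33.1, 34.1, 50.9 and 36.0 in NC islets, also with overlap (log2 fold change -0.02, adjusted p = 0.963). Hmox2, the constitutive form, gave -0.17 (adjusted p = 0.176), and Nfe2l1, a factor related to NRF2, gave -0.08 (adjusted p = 0.682).

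**Figure D4:**
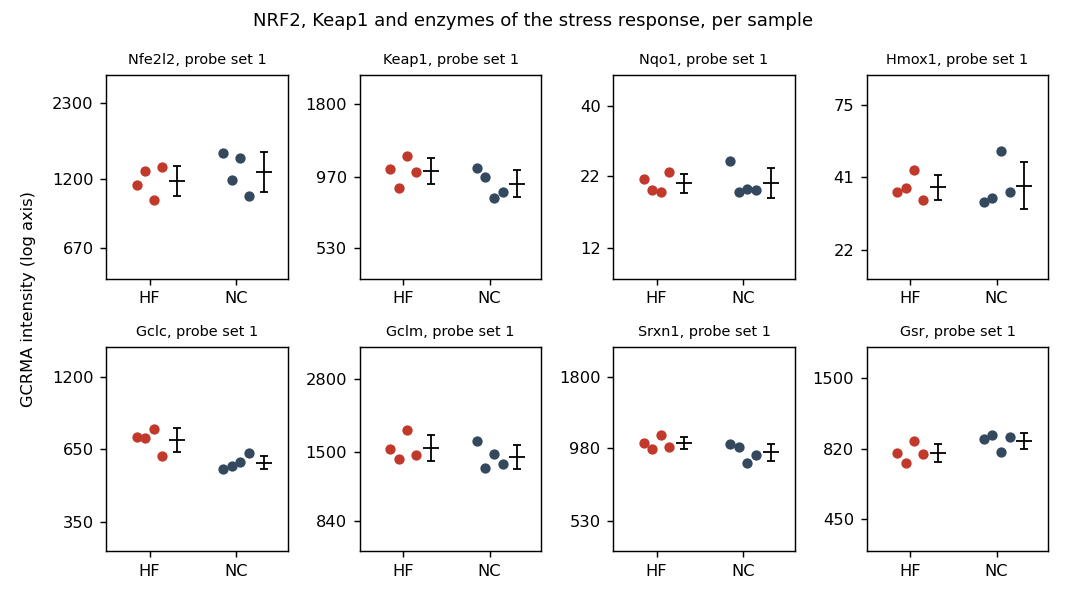
Points are GCRMA intensities (log axis) of single samples, HF left of NC, for Nfe2l2, Keap1 and 6 enzymes of the stress response. Horizontal and vertical bars are mean and SD of the log2 values (n = 4). HF and NC values overlap in all 8 panels, and no adjusted p is under 0.05.

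NRF2 binds antioxidant response elements, whose core is TGACNNNGC, or GCNNNGTCA read on the other strand. This motif was searched on both strands in promoters of 250 bases before and 50 bases after the start of each gene, from RefSeq on the build GRCm38.p6, which held 43 of the 50 genes. It occurred for 12 of the 43 genes (27.9%), against 3781 of all 27025 genes (13.99%). Some genes have several promoters, and a gene was counted if any of them held the motif. By single promoters it was 12 of 61 (19.7%) for the members, against 4071 of all 32851 (12.4%). Of the 7 genes lower by the adjusted p only Mgst1 had it, of the 2 higher genes Txnrd1 had it, and of 29 measured genes that passed neither way 8 had it. Windows around the motif, in capitals, are given 5′ to 3′ on the plus strand for Mgst1 (chr6:138140441-138140509) and Txnrd1 (chr10:82859084-82859152), the genes past the adjusted p that hold it, and for Gclm (chr3:122245393-122245461) and Gstm5 (chr3:107895782-107895850), which hold it and did not pass.
Mgst1: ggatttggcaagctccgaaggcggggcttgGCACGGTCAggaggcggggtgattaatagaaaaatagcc
Txnrd1: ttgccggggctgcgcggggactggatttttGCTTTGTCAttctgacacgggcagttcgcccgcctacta
Gclm: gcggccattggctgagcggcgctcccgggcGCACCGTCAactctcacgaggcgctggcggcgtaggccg
Gstm5: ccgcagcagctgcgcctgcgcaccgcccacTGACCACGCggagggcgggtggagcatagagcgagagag
The motif began 56, 92, 134 and 42 bases before the start of Mgst1, Txnrd1, Gclm and Gstm5. In Gstm5 it reads TGACNNNGC on the strand shown and in the other genes GCNNNGTCA. A match is a description of the letters, and binding was not measured.

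Among 5 measured glutathione peroxidases, Gpx2 was higher, at 511 ± 42.0 in HF islets and 267 ± 15.03 in NC islets (log2 fold change 0.94, adjusted p = 0.000982). Gpx8, of the endoplasmic reticulum, was lower, at 48.1 ± 8.99 in HF islets and 86.7 ± 9.38 in NC islets (log2 fold change -0.86, adjusted p = 0.0129), and the secreted Gpx3 was lower by the adjusted p alone, at 10752 ± 1220.3 in HF islets and 15162 ± 1369 in NC islets (log2 fold change -0.50, adjusted p = 0.0282). Of 31 further redox genes measured, none was called higher. Msrb3, a methionine sulfoxide reductase, and Maff, a small partner of NRF factors, were called lower. Msrb3 was at 79.0 ± 15.5 in HF islets and 153 ± 6.84 in NC islets (log2 fold change -0.97, adjusted p = 0.00586) and Maff at 149 ± 11.9 in HF islets and 261 ± 46.1 in NC islets (log2 fold change -0.79, adjusted p = 0.0112).

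Nnt, in the animals of both diets a gene with a deletion, gave 1629 ± 169.8 in HF islets and 1549 ± 174 in NC islets (log2 fold change 0.07, adjusted p = 0.758), and whether its probe set lies in the deleted part is not known here. Of 5 measured genes of NADPH oxidases, among them the enzyme of phagocytes that makes superoxide, Cyba was called lower, at 42.8 ± 4.88 in HF islets and 80.0 ± 12.0 in NC islets (log2 fold change -0.90, adjusted p = 0.00627). Cybb was lower by the adjusted p alone (log2 fold change -0.46, adjusted p = 0.0461). The macrophage markers given above moved the same way, and their part was not tested. Errors are SD with n = 4 each.

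Some members had no retained probe set besides those named above. Gsta4 and Mgst2 were under the intensity limit in all samples, at 4.13 to 5.35 and 4.60 to 4.78, so that a difference between the diets was not detectable for them. Leaving out probe sets under the limit also removed 10 probe sets of genes that kept another one.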

How the data were processed

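Islet RNA of 8 samples, 4 on HF and 4 on NC, had been hybridized to Affymetrix MOE 430v2 arrays. The authors summarised the probes with GCRMA in ArrayAssist Lite 3.4, and the deposited values are 1 intensity per probe set and sample on the linear scale, adjusted for background and normalized across arrays. They were taken to log2 with no further normalization.

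Of 45101 probe sets, 34958 are annotated to 1 gene, 932 to several and 9211 to none named here. Present calls were not used here. Instead, probe sets were ranked without regard to diet by the intensity that at least 3 of the 8 samples reached, and the top 25617 were kept, the number of probe sets the study tested. The lowest of them reached 8.82. SAM, the array test of the methods, was not run, and limma 3.58.1 (lmFit and eBayes, R 4.3.3) was fitted to all 25617 with Benjamini-Hochberg adjustment. The code was tested on simulated data. The number of arrays limits the precision.

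Values are given for genes with an adjusted p under 0.05 on a probe set, for Sod1, Sod2, Cat, Prdx1, Txn1, Txnrd1, Gclc, Gsr, Nfe2l2, Keap1, Nqo1, Hmox1, Gstm1, Mgst1 and G6pdx, for the brightest member of each role and, in the other redox lists, for called genes and Nnt. Other members were named after their values were seen. The members, lists and markers were chosen with earlier results of these data known. Marker and pathway genes are represented by their brightest retained probe set. The fit was repeated unfiltered, with a limit of 50, after quantile normalization, median centring or scaling on beta cell markers, with limma's trend and robust options, with array weights, with a Student test of each probe set (its own variance, Benjamini-Hochberg adjustment), with 1 probe set per gene, and without each sample in turn.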

Additional observations from a re-analysis of the deposited data

Results flagged for a closer look

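In 4 of 64 groups of 4 samples examined for the named probe sets, 1 sample stood apart from the other 3, and chance alone sets 1 apart in about 1 of 20 groups. Hmox1 was at 50.9 in NC 4, against 33.1 to 36.0 in the other NC samples. Nqo1 was at 25.1 in NC 1, against 19.3 to 19.7 in the others. HF 23 stood apart on a pair of Sod1 probe sets, at 7700.4 on probe set 1 (8226 to 8327 in the other HF samples) and at 105.7 on probe set 4 (70.7 to 72.6 in the others).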

How the results depend on the processing

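Of 529 alternative values for the 32 named probe sets 509 kept the call, 11 lost it and 9 gained it, and none turned its direction with a call. Most of the 32 were not called in the main fit, and a probe set called in neither fit counts as keeping its call, whatever its sign. The 11 losses fell on called probe sets, with 8 of 16 alternatives for Sesn3 probe set 2 and 3 of 16 for Cat probe set 2. The 11 named probe sets with an adjusted p under 0.05 kept their sign in every alternative that held them. The count called higher was 0 with no filter, with the Student test and with 1 probe set per gene. It was 2 with the stricter filter and with repeated quantile normalization, where Sod1 probe set 4 joined Sesn3. It was 0 to 1 when each sample was left out. At an unadjusted p under 0.05 limma gave 22 of the 83 members and 5335 of all 25617 retained probe sets. The Student test gave 23 of the 83 and 4834 of the 25617. The count called lower was 9 when scaled on beta cell markers and 3 to 5 when each sample was left out. With 1 probe set per gene it was 2 of 42 member probe sets. By the adjusted p alone the count was 11 in the main fit, 7 of 42 with 1 probe set per gene and 5 to 9 when each sample was left out. It was 8 with no filter and with the Student test, and 12 with median centring. It was 13 with limma's trend and robust options, and 14 with repeated quantile normalization and with array weights. The stricter filter and scaling on beta cell markers each gave 15. Scaling on beta cell markers moved the median of the members to -0.11 and that of all retained probe sets by -0.13, and raised the share of lower calls among all calls to 93.1%, against 82.6%. The members' median was -0.01 to 0.03 when each sample was left out. Scaling on beta cell markers shifts each array by 1 value, set by the mean log2 level of the 10 markers. Every log2 fold change therefore moved by the same amount, because these markers were on average higher in HF samples. Why the markers were higher was not tested. All retained probe sets called higher and lower were 165 and 783 in the main analysis, 85 higher with no filter, 91 higher and 1228 lower when scaled on beta cell markers, and 59 and 450 with the Student test. No paired analysis was possible because the diets share no replicate number. The 4 arrays per diet limit the precision.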
